A study of Mus musculus with 6 samples.

Results

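Expression of 10 genes that encode or control the transcription factor NF-κB was examined in primary mouse chondrocytes after silencing of Pkm2, a glycolytic enzyme. The genes were chosen by symbol and role, at a time when earlier results of these data were known. They were the subunits Nfkb1, Nfkb2, Rela and Relb, the inhibitors Nfkbia, Nfkbib and Nfkbie, the atypical IκB proteins Nfkbiz and Bcl3, and the feedback gene Tnfaip3. They made up 10 of the 55416 genes in the deposited table, and all 10 were among the 15269 genes that passed the filter on low counts.

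RNA-seq libraries came from chondrocytes labelled as taken from knee joints of neonatal mice and grown in DMEM/F12 medium with fetal bovine serum. The study's supplementary methods describe chondrocytes from the knees of older mice, so the age is uncertain. One group received a scrambled control siRNA (siNC, n = 3 libraries, genotype labelled WT) and the other an siRNA against Pkm2 (siPKM2, n = 3 libraries). The titles name all 3 siPKM2 libraries alike, whereas their genotype labels read PKM2, PKM3 and PKM4 knockdown for replicates 1, 2 and 3. No added cytokine is named for these libraries. The labels do not say whether the replicates were separate animals. P-values without a block therefore measure the spread between these libraries. Those with the replicate number as a block measure the spread of the differences within same-numbered pairs. Either spread may be technical.

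NF-κB is a family of dimeric transcription factors that IκB proteins hold in the cytoplasm. When cytokines or microbial products activate the IκB kinase complex, the classical IκB proteins are degraded and the dimers enter the nucleus, where they bind κB sites. Several genes of the system, Nfkbia and Tnfaip3 among them, are themselves targets, which closes a negative feedback loop. In cartilage, NF-κB is known for driving cytokines and matrix-degrading enzymes during inflammation.

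The whole series served as the frame for these genes. The libraries held between 22316996 and 25691029 counts. Pkm, the targeted gene, read 2335, 2746 and 1674 CPM (counts scaled to the library's total after TMM adjustment) in siNC replicates 1, 2 and 3, and 336, 541 and 309 CPM in siPKM2 replicates 1, 2 and 3. Its level in siPKM2 was 0.174 times that in siNC, with a log2 fold change of -2.53 ± 0.13 (SE) and an adjusted p of 0.00932 by edgeR's quasi-likelihood test with the replicate number as a block. Without the block the adjusted p was 0.0738. Libraries with the same replicate number deviated together from their group means, with correlations of 0.72, 0.79 and 0.72 across 15269 genes, so the numbers were taken to pair the libraries.

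Replicate 2 of both groups stood apart from the other 4 libraries. All 8 chondrocyte markers were lowest in replicate 2 of each group, and their summed level was 10031 and 13988 CPM there against 38941 to 46449 CPM elsewhere. A list of 10 interferon-stimulated genes summed to 1940 CPM in siNC replicate 2 and 3400 CPM in siPKM2 replicate 2. In the other libraries it summed to 99.3 and 134 CPM in siNC and 1294 and 1052 CPM in siPKM2, so this list was also higher in siPKM2 within every pair. Macrophage markers summed to 61.0 and 38.6 CPM in replicate 2 and 7.73 to 14.9 CPM elsewhere. Most of that was Cd68, at 55.5 and 33.4 CPM in replicate 2, while 5 of the 8 macrophage markers, Ptprc, Adgre1, C1qa, C1qb and Itgam, were at or near 0. Endothelial markers summed to 0.4 to 1.21 CPM, muscle markers to 4.81 to 12.5 CPM, and fibroblast and synovial markers to 5709 to 15887 CPM over the 6 libraries, and osteoblast markers to 431, 63.6 and 259 CPM in siNC and 179, 54.2 and 88.1 CPM in siPKM2. The osteoblast sum was thus lower in siPKM2 in each pair. In the blocked edgeR fit Ibsp fell (log2 fold change -1.45, adjusted p = 0.0278). Matn3 (0.86, adjusted p = 0.0206), Prg4 (2.15, adjusted p = 0.0271) and Des (2.46, adjusted p = 0.0360) rose. The lists did not move as one. The log2 fold change was positive for 6 of 8 chondrocyte, 2 of 6 fibroblast and synovial, and 2 of 3 tested muscle markers. Acta1, of the muscle list, was at -1.57 (adjusted p = 0.0545). Prg4 is in the synovial list, but the paper also counts it among matrix genes of a chondrocyte subgroup. In bulk samples, fewer cells of a type and less RNA per cell cannot be told apart. The part of these lists in the results that follow was not tested. Levels of replicate 2 can therefore be read apart wherever levels are printed by library.

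The promoters of these genes are shown because κB sites are where the encoded factors bind. RefSeq windows of 300 bases (build GRCm38.p6), from 250 bases before to 50 after an annotated start, were at hand for 7 of the 10 genes, 10 windows in all; Nfkb1, Relb and Nfkbiz had none. The κB consensus was GGGRNWYYCC (R = A or G, W = A or T, Y = C or T, N = any base). Searched on both strands, it was present in 7 of these 10 windows and in 5 of the 7 genes. Among all 32851 promoters of the same length, 1480 (4.51%) held it, and among promoters of genes tested 5.3% did. The Nfkb2 windows that start at 46305445 and 46305680 overlap and share a match, GGGACTTTCC, which is counted in both. The 4 windows printed here belong to the inhibitor with the highest level in replicate 2 (Nfkbia), a subunit and a feedback gene that rose under the blocked test (Nfkb2 and Tnfaip3), and the inhibitor whose groups did not overlap (Nfkbib). They are written 5′ to 3′ on the strand of the gene with bases that match the consensus in capitals.
Nfkbia, chr12:55492598-55492897, minus strand: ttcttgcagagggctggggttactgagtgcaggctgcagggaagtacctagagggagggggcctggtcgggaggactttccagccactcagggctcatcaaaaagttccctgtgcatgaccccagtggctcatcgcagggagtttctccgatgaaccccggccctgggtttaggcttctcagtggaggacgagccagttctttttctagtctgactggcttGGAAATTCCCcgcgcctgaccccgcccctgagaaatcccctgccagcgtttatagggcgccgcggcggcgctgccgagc
Nfkb2, chr19:46304487-46304786, plus strand: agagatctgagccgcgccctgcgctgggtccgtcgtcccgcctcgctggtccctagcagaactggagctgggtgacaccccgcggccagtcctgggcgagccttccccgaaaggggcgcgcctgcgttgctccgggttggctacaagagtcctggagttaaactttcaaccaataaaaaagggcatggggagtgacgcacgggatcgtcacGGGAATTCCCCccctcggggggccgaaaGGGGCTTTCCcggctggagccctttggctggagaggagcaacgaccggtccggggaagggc
Tnfaip3, chr10:19015361-19015660, minus strand: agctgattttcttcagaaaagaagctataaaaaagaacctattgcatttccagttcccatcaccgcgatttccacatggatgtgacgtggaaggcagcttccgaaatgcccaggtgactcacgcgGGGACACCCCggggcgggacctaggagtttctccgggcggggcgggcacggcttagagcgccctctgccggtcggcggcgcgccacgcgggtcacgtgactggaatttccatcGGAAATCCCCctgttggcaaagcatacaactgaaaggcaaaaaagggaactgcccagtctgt
Nfkbib, chr7:28766595-28766894, minus strand: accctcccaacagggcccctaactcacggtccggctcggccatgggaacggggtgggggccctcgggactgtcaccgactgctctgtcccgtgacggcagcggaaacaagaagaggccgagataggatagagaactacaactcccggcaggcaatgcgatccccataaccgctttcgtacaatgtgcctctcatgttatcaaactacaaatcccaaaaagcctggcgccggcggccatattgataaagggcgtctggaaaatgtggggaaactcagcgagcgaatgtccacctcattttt

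Counted from the annotated start, the match in the Nfkbia window began at base -29. The Nfkb2 window held 3 matches, beginning at bases -39, -38 and -11, and the first pair overlapped in all but 1 base. The Tnfaip3 window held matches that began at bases -125 and -12. Bcl3 had a match at base 2 and Nfkbie at base -106. The Nfkbib and Rela windows held none, nor did the other Tnfaip3 window (chr10:19011914-19012213). This says only that these letters are not in those windows. A match is a description of the sequence and not a measured binding site.

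Of the NF-κB subunits, Nfkb1 and Nfkb2 were higher in siPKM2 within all 3 pairs, whereas Rela and Relb were not. The remaining subunit of the family, Rel (c-Rel), was no member of the 10 and is given here after its values were seen. It read 11.9, 20.7 and 11.8 CPM in siNC and 7.46, 17.9 and 8.73 CPM in siPKM2, lower in each of the 3 pairs, and did not pass the test (blocked log2 fold change -0.43 ± 0.14 SE, adjusted p = 0.0772 by edgeR). Nfkb1 encodes p105, the precursor of p50, and lies on chromosome 3 (135584655 to 135691547, minus strand, GRCm38). It read 66.9, 99.1 and 75.5 CPM in siNC replicates 1, 2 and 3 and 82.8, 139 and 90.6 CPM in siPKM2. Replicate 2 was the highest library of both groups, and the groups overlapped because siNC replicate 2 was above siPKM2 replicates 1 and 3. The means were 80.5 ± 16.6 CPM in siNC and 104 ± 30.3 CPM in siPKM2 (SD, n = 3). With the block, Nfkb1 rose 1.28-fold, a log2 fold change of 0.35 ± 0.08 (SE) with an adjusted p of 0.0386 by edgeR's quasi-likelihood test. Without the block the log2 fold change was 0.37 ± 0.25 (SE, adjusted p = 0.494).

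Nfkb2 encodes p100, the precursor of p52 and the substrate of the noncanonical pathway (chromosome 19, 46304320 to 46312385, plus strand). Its level was 29.9, 58.4 and 34.9 CPM in siNC replicates 1, 2 and 3 and 45.4, 79.5 and 56.7 CPM in siPKM2. Every siPKM2 library exceeded the siNC library of the same number, by 0.60, 0.45 and 0.70 on the log2 scale for pairs 1, 2 and 3. The groups overlapped only through siNC replicate 2, which lay above siPKM2 replicates 1 and 3. Nfkb2 rose 1.5-fold with the block, with a log2 fold change of 0.58 ± 0.09 (SE) and an adjusted p of 0.0164 by edgeR, compared with 0.56 ± 0.32 (adjusted p = 0.414) without it. Exons of Nfkb2 overlap those of Psd and AC114539.1 on the opposite strand. Psd read 2.98 to 9.28 CPM over the 6 libraries.

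Rela encodes p65, the main transactivating subunit of the canonical pathway (chromosome 19, 5637483 to 5648130, plus strand). It read 53.3, 83.7 and 56.2 CPM in siNC and 66.6, 81.2 and 66.3 CPM in siPKM2. In pairs 1 and 3 siPKM2 was above siNC, and in pair 2 it was lower by a small margin, so the groups overlapped. The blocked log2 fold change was 0.17 ± 0.10 (SE, adjusted p = 0.253 by edgeR).

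Relb, the partner of p52 in the noncanonical pathway, lies on chromosome 7 (19606217 to 19629438, minus strand). Its values were 16.9, 35.4 and 18.0 CPM in siNC and 16.0, 38.4 and 22.6 CPM in siPKM2. Replicate 2 was the high library of each group, and the difference within pairs was negative in pair 1. The blocked log2 fold change was 0.13 ± 0.11 (SE, adjusted p = 0.442 by edgeR).

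**Figure D1:**
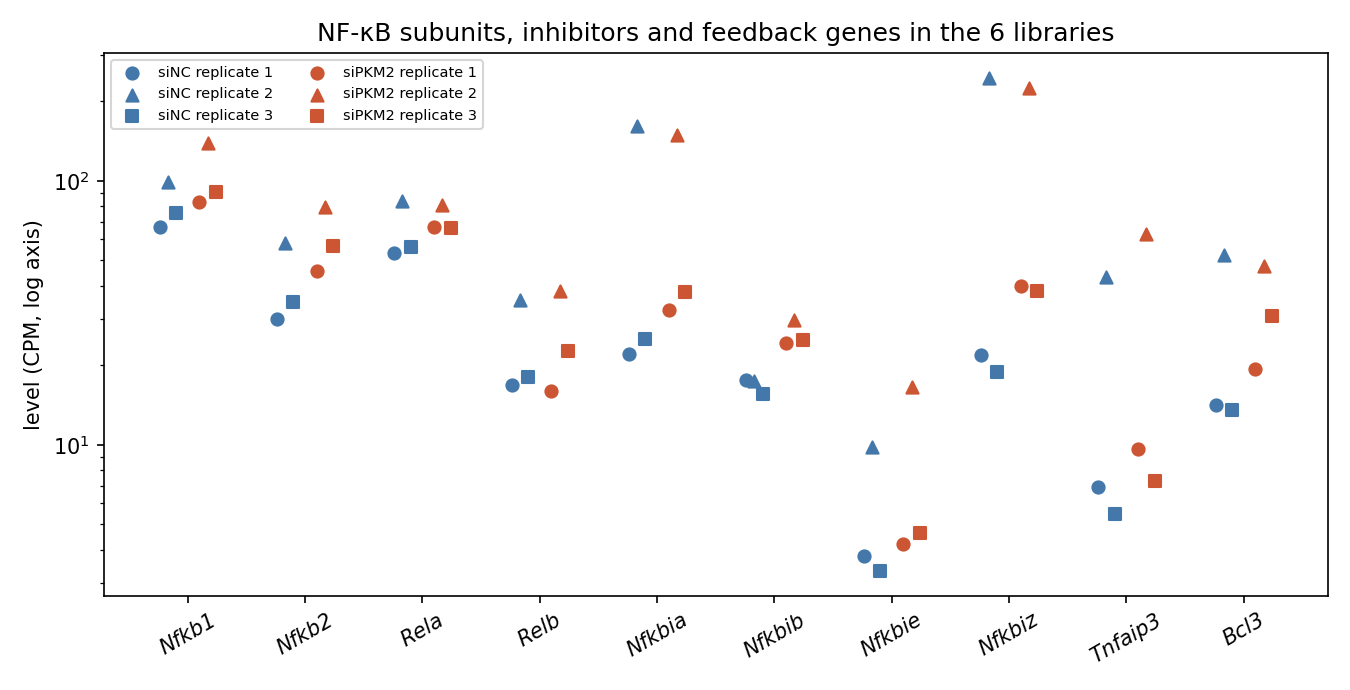
Level of each gene in the 6 libraries, in CPM on a log axis; blue marks siNC, red marks siPKM2, and circle, triangle and square mark replicates 1, 2 and 3. Replicate 2 (triangles) is the highest library of both groups for 9 of 10 genes in CPM (10 of 10 in TPM or with RLE size factors), and only Nfkbib has every siPKM2 library above every siNC library in CPM.

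Of the classical inhibitors, Nfkbib rose in siPKM2 and had groups that did not overlap, whereas Nfkbia and Nfkbie did not pass the test. Nfkbib encodes IκBβ, which retains NF-κB dimers in the cytoplasm (chromosome 7, 28758251 to 28767512, minus strand). It read 17.6, 17.5 and 15.6 CPM in siNC and 24.3, 29.6 and 25.0 CPM in siPKM2. All 3 siPKM2 libraries were above all 3 siNC libraries, a pattern shared by 12.0% of all genes tested. Replicate 2 did not stand apart here, at 1.05 times the mean of replicates 1 and 3 in siNC and 1.2 times in siPKM2. The means were 16.9 ± 1.1 and 26.3 ± 2.87 CPM (SD, n = 3). Nfkbib rose 1.55-fold with the block, with a log2 fold change of 0.64 ± 0.11 (SE) and an adjusted p of 0.0185 by edgeR. Without the block the log2 fold change was again 0.64, with an SE of 0.15 and an adjusted p of 0.139, and DESeq2 without a block gave an adjusted p of 0.0135.

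Exons of Nfkbib overlap those of Sirt2 and Ccer2 on the opposite strand, and the strandedness of the libraries is not given in the sources used here, so reads in the overlap cannot be told apart. Ccer2 did not exceed 0.0809 CPM in any library. Sirt2 read 63.7, 74.1 and 69.6 CPM in siNC and 52.3, 52.1 and 50.3 CPM in siPKM2. It was therefore lower in siPKM2, the opposite direction to Nfkbib, with a blocked log2 fold change of -0.42 ± 0.09 (SE, adjusted p = 0.0268 by edgeR).

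Nfkbia encodes IκBα, the inhibitor that NF-κB itself induces (chromosome 12, 55489410 to 55492647, minus strand). It read 22.1, 162 and 25.2 CPM in siNC and 32.5, 149 and 37.8 CPM in siPKM2. Replicate 2 was 6.85 times the mean of replicates 1 and 3 in siNC and 4.24 times in siPKM2. Replicates 1 and 3 were higher in siPKM2, by 0.56 and 0.58 on the log2 scale, whereas pair 2 went the other way by a small margin (-0.12). Nfkbia did not pass the test with the block (log2 fold change 0.33 ± 0.16 SE, adjusted p = 0.182 by edgeR). With both replicate 2 libraries left out, the blocked log2 fold change was 0.56 and the adjusted p 0.00541, in a fit where 39.1% of all genes passed. With both replicate 1 libraries left out it was 0.22 (adjusted p = 0.522). With both replicate 3 libraries left out it was 0.21 (adjusted p = 0.553). In those last fits 0% of all genes passed.

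Nfkbie encodes IκBε and was the least abundant inhibitor (chromosome 17, 45555703 to 45563169, plus strand). Its levels of 3.8, 9.79 and 3.33 CPM in siNC and 4.2, 16.6 and 4.62 CPM in siPKM2 rested on 76 to 427 counts per library. It was higher in siPKM2 in all 3 pairs, but by amounts that ranged from 0.14 to 0.76 on the log2 scale, and siNC replicate 2 was above siPKM2 replicates 1 and 3. The blocked log2 fold change was 0.48 ± 0.19 (SE, adjusted p = 0.121 by edgeR).

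The atypical IκB proteins act in the nucleus, where they bind NF-κB dimers on DNA. Nfkbiz encodes IκBζ, a cofactor for a subset of secondary response genes (chromosome 16, 55811375 to 55838899, minus strand). Its levels were 21.9, 246 and 18.8 CPM in siNC and 39.8, 225 and 38.3 CPM in siPKM2. Replicate 2 was 12.1 times the mean of replicates 1 and 3 in siNC and 5.76 times in siPKM2. In replicates 1 and 3 both siPKM2 libraries were above both siNC libraries, with log2 ratios of 0.86 and 1.02, while pair 2 gave -0.13. The blocked log2 fold change was 0.57 ± 0.24 (SE, adjusted p = 0.133 by edgeR), and without replicate 2 it was 0.93 (adjusted p = 0.00107), where 39.1% of all genes passed. Without replicate 1 it was 0.43 (adjusted p = 0.407), and without replicate 3 it was 0.36 (adjusted p = 0.448).

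Bcl3, which binds p50 and p52 homodimers, read 14.2, 52.6 and 13.6 CPM in siNC and 19.4, 47.7 and 30.8 CPM in siPKM2 (chromosome 7, 19808462 to 19822770, minus strand). The log2 ratio was 0.45 in pair 1, -0.14 in pair 2 and 1.18 in pair 3, so the pairs differed widely in size. The test was not passed with the block (0.48 ± 0.25 SE, adjusted p = 0.209 by edgeR). Without replicate 2 the log2 fold change was 0.81 and the adjusted p 0.0153, where 39.1% of all genes passed. Without replicate 1 it was 0.50 (adjusted p = 0.391), and without replicate 3 it was 0.15 (adjusted p = 0.671). Gm16175, whose exons overlap Bcl3 on the opposite strand, was at 0 in all 6 libraries.

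Tnfaip3 encodes A20, a ubiquitin-editing enzyme that shuts off signalling upstream of the IκB kinase complex (chromosome 10, 19000910 to 19015657, minus strand). It read 6.93, 43.4 and 5.47 CPM in siNC and 9.65, 62.8 and 7.27 CPM in siPKM2. Replicate 2 was 7.01 times the mean of replicates 1 and 3 in siNC and 7.43 times in siPKM2. Both replicate 2 libraries were above the other 4, so the groups overlapped. Within pairs the differences were 0.48, 0.53 and 0.41 on the log2 scale. Tnfaip3 rose 1.39-fold with the block, with a log2 fold change of 0.48 ± 0.10 (SE) and an adjusted p of 0.0269 by edgeR. Without the block the SE was 1.10 and the adjusted p 0.858, and without replicate 2 the blocked adjusted p was 0.0923.

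**Figure D2:**
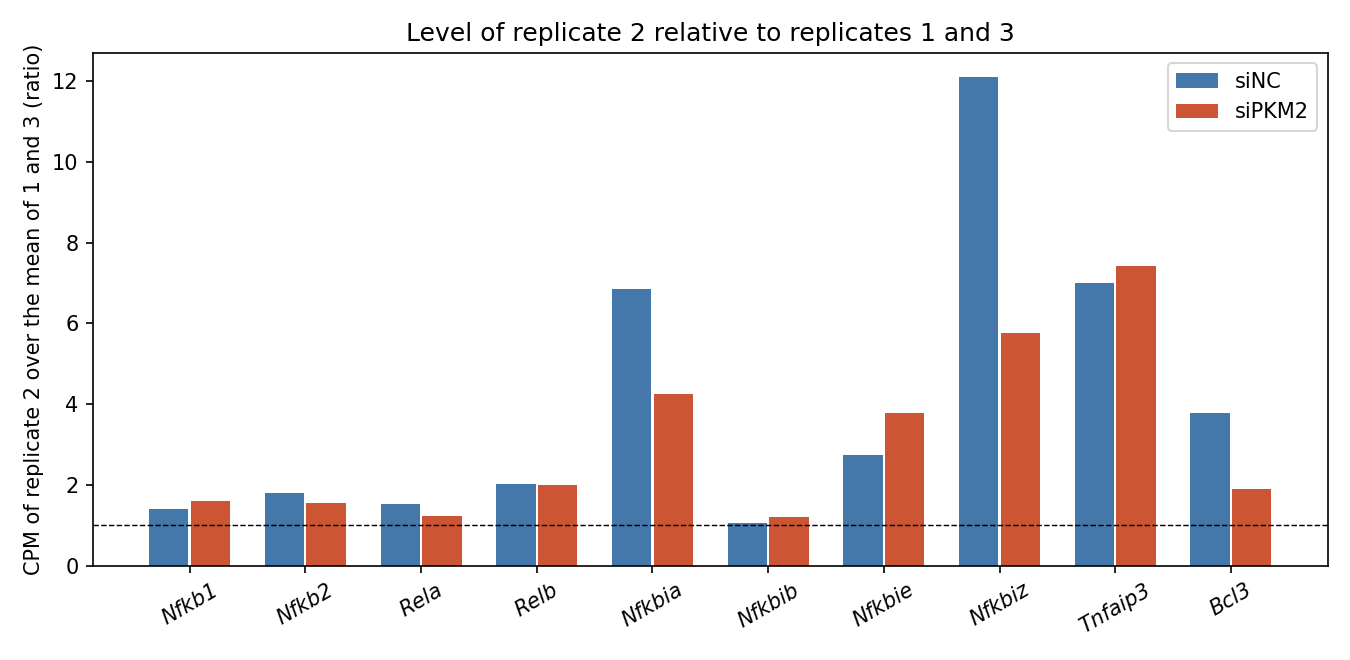
Level of replicate 2 divided by the mean of replicates 1 and 3, from CPM, in siNC (blue bars) and siPKM2 (red bars); the dashed line marks 1. Nfkbiz, Tnfaip3 and Nfkbia have the tallest bars, from 4.24 to 12.1, and Nfkbib the shortest, at 1.05 and 1.2.

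Replicate 2 was the highest library of its group in both groups for 9 of the 10 genes, compared with 26.9% of all genes tested. Nfkbib was the exception by a narrow margin in siNC, 17.5 CPM against 17.6 CPM in replicate 1, and with the deposited TPM or with RLE size factors replicate 2 was highest for 10 of 10. The median ratio of replicate 2 to the mean of replicates 1 and 3 was 2.39 in siNC and 1.94 in siPKM2, beside 0.97 and 0.992 over all genes tested. The subunits lay at 1.22 to 2.03, and Nfkbia, Nfkbiz and Tnfaip3 at 4.24 to 12.1. Nfkbiz and Tnfaip3 exceeded 5 in both groups, which 1.05% of all genes tested did. These ratios describe 1 library per group and carry no test. The interferon and chondrocyte marker lists above moved with replicate 2 as well.

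With a fold over 2 and an adjusted p under 0.05 required, and no block, 0 of the 10 genes were called by edgeR's quasi-likelihood test, as were 0% of the 15269 genes tested. Dropping the fold threshold changed neither count, since the lowest adjusted p was 0.0519, and 2690 genes had an unadjusted p under 0.05. Nfkbib was the 1 member with an unadjusted p under 0.05 in that fit, and DESeq2 with the same fold threshold called 0 of the 10 beside 3.05% of all genes. With the replicate block and the same fold threshold, 0 of the 10 were called beside 5.84% of all genes. With the block and no threshold on the fold, 4 of the 10 were called, Nfkb1, Nfkb2, Nfkbib and Tnfaip3, all of them higher in siPKM2. That was 40% of the members beside 23.1% of all genes tested in either direction and 12.3% called higher. DESeq2 with the block and no fold threshold called 4 members, beside 27% of all genes. In the blocked edgeR fit with no fold threshold 4 of the 10 interferon-stimulated genes were called, all higher in siPKM2. That was again 40%, beside the 12.3% of all genes called higher. Their median log2 fold change was 3.20, and their part in the members' values was not tested.

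The log2 fold change was positive for 10 of 10 members, compared with 48.1% of all genes tested without the block and 49.0% with it. The median was 0.33 without the block and 0.48 with it, beside -0.02 and -0.01 over all genes. Without the block the direction rested on single libraries: the median was -0.18 without siPKM2 replicate 2, where 6 members turned negative, and 1.07 without siNC replicate 2. Within pairs 1, 2 and 3, 9, 6 and 10 members were higher in siPKM2, with median log2 ratios of 0.44, 0.28 and 0.50. In all 3 pairs 5 members were higher (Nfkb1, Nfkb2, Nfkbib, Nfkbie and Tnfaip3), beside 30.5% of all genes. Every change called was under 2-fold.

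The count of calls depended on which pair was left out. Without both replicate 2 libraries, the blocked fit with no fold threshold called 7 members (Nfkb1, Nfkb2, Rela, Nfkbia, Nfkbib, Nfkbiz and Bcl3) beside 39.1% of all genes. Without both replicate 1 libraries, or without both replicate 3 libraries, it called 0 members and 0% of all genes tested. Tnfaip3, Nfkbie and Relb did not pass without replicate 2.

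**Figure D3:**
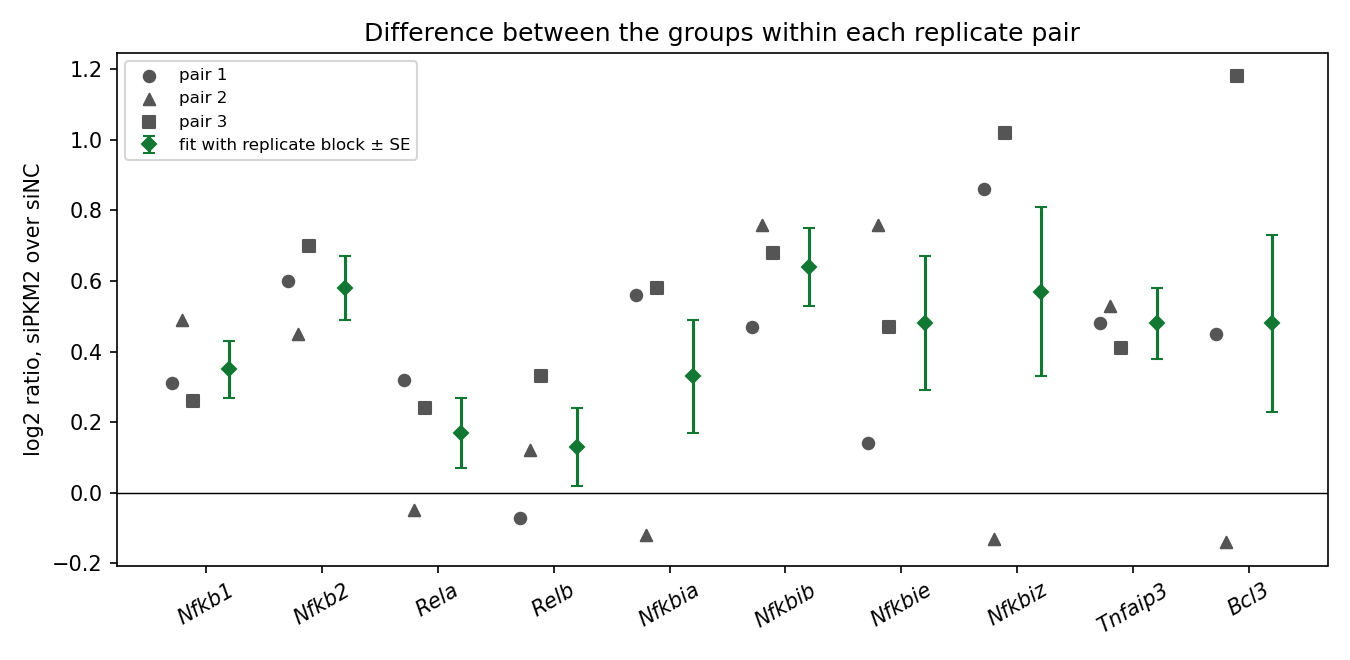
Log2 ratio of siPKM2 over siNC within pairs 1, 2 and 3 (grey circle, triangle and square) and the fitted log2 fold change with the replicate block (green diamond, bar = SE). For Nfkb1, Nfkb2, Nfkbib, Nfkbie and Tnfaip3 all 3 pairs lie above 0, whereas pair 2 lies below 0 for Rela, Nfkbia, Nfkbiz and Bcl3.

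Per length of transcript, in the deposited TPM values, the subunits Nfkb1 and Rela ranked first in siNC. The siNC medians in TPM were 53.4 for Nfkb1, 43.4 for Rela, 35.1 for Nfkbia, 24.9 for Nfkbib, 19.5 for Nfkb2, 15.3 for Relb, 15.0 for Bcl3, 9.53 for Nfkbiz, 2.49 for Nfkbie and 2.32 for Tnfaip3. Between neighbours in this order the siNC ranges overlapped except between Nfkbiz and Nfkbie. The order differed in replicate 2, where Nfkbia was the highest member at 219.7 TPM in siNC and 191 TPM in siPKM2, against 23.7 to 45.0 TPM in the other 4 libraries. Nfkbiz followed in siNC replicate 2 at 119 TPM and was also second in siPKM2 replicate 2 at 103 TPM.

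The ratio of Nfkbia to Rela in TPM set the transcript of the inhibitor beside that of the subunit which the inhibitor protein holds. It is a ratio of RNA and does not give the amounts of protein. It was 0.57, 3.01 and 0.808 in siNC replicates 1, 2 and 3 and 0.772, 2.64 and 0.904 in siPKM2. Nfkbia thus exceeded Rela in replicate 2 of both groups and in no other library. The 3 classical inhibitors together stood at 0.453, 1.24 and 0.473 times the summed TPM of the 4 subunits in siNC, and at 0.564, 1.04 and 0.532 times in siPKM2. The ratio was higher in siPKM2 in pairs 1 and 3 and lower in pair 2. With 3 libraries against 3 an exact two-sided permutation test that ignores the pairs cannot go below p = 0.1. No paired test was run either, so these ratios are given as a description.

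The other genes of the pathway, a list of 41 that held kinases, adaptors, ubiquitin enzymes and further feedback genes, together with the subunit Rel and the atypical IκB gene Nfkbid, were all tested. Without the block 0 were called by edgeR with a fold over 2, 9 had an unadjusted p under 0.05 (22% beside 17.6% of all genes), and DESeq2 without a block called 0 beside 3.05% of all genes. With the block and no fold threshold 16 were called, 15 higher and 1 lower in siPKM2 (39% beside 23.1% of all genes), and 1 of them passed a fold over 2 (2.44% beside 5.84%). The median log2 fold change of the list was 0.19 without the block and 0.28 with it.

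Myd88, an adaptor of Toll-like and interleukin-1 receptors, read 35.9, 45.5 and 33.0 CPM in siNC and 60.6, 78.9 and 74.2 CPM in siPKM2, with no overlap between groups. It rose by a log2 fold change of 0.91 ± 0.11 (SE, adjusted p = 0.0130 by edgeR with the block). Traf6, the ubiquitin ligase downstream of Myd88, read 21.3, 26.6 and 23.4 CPM in siNC and 43.0, 46.5 and 43.1 CPM in siPKM2. Its groups were also apart, and the log2 fold change was 0.90 ± 0.09 (SE, adjusted p = 0.0110). Irak4, the kinase recruited by Myd88, rose by 0.59 ± 0.10 (SE, adjusted p = 0.0183), with 12.7 to 16.7 CPM in siNC and 19.3 to 24.3 CPM in siPKM2.

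Among kinases, Map3k14 (NIK, the kinase of the noncanonical pathway) read 11.0, 18.0 and 13.8 CPM in siNC and 15.1, 22.8 and 26.4 CPM in siPKM2, with a log2 fold change of 0.58 ± 0.15 (SE, adjusted p = 0.0450 by edgeR with the block). Ikbkb and Chuk, the catalytic subunits of the IκB kinase complex, rose by 0.43 ± 0.10 (adjusted p = 0.0406) and 0.36 ± 0.09 (adjusted p = 0.0447), and were chosen for their role after their values were seen. The scaffold subunit Ikbkg, chosen in the same way, had a log2 fold change of 0.10 ± 0.15 (adjusted p = 0.639). Ikbke, an IκB kinase relative active in interferon induction, was the 1 gene of the list called lower. It read 23.1, 82.3 and 22.5 CPM in siNC and 14.1, 60.6 and 14.3 CPM in siPKM2, lower in every pair (log2 fold change -0.60 ± 0.10 SE, adjusted p = 0.0179).

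Nlrc5, a regulator of MHC class I genes that is also induced by interferon, had the largest change of the list. It read 1.04, 45.5 and 2.23 CPM in siNC and 18.2, 81.9 and 14.3 CPM in siPKM2. The libraries of replicates 1 and 3 were low in siNC and higher in siPKM2, and both replicate 2 libraries were high. The blocked log2 fold change was 2.27 ± 0.59 (SE, adjusted p = 0.0473 by edgeR). The interferon-stimulated list moved in the same libraries, and its part in this result was not tested.

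**Figure D4:**
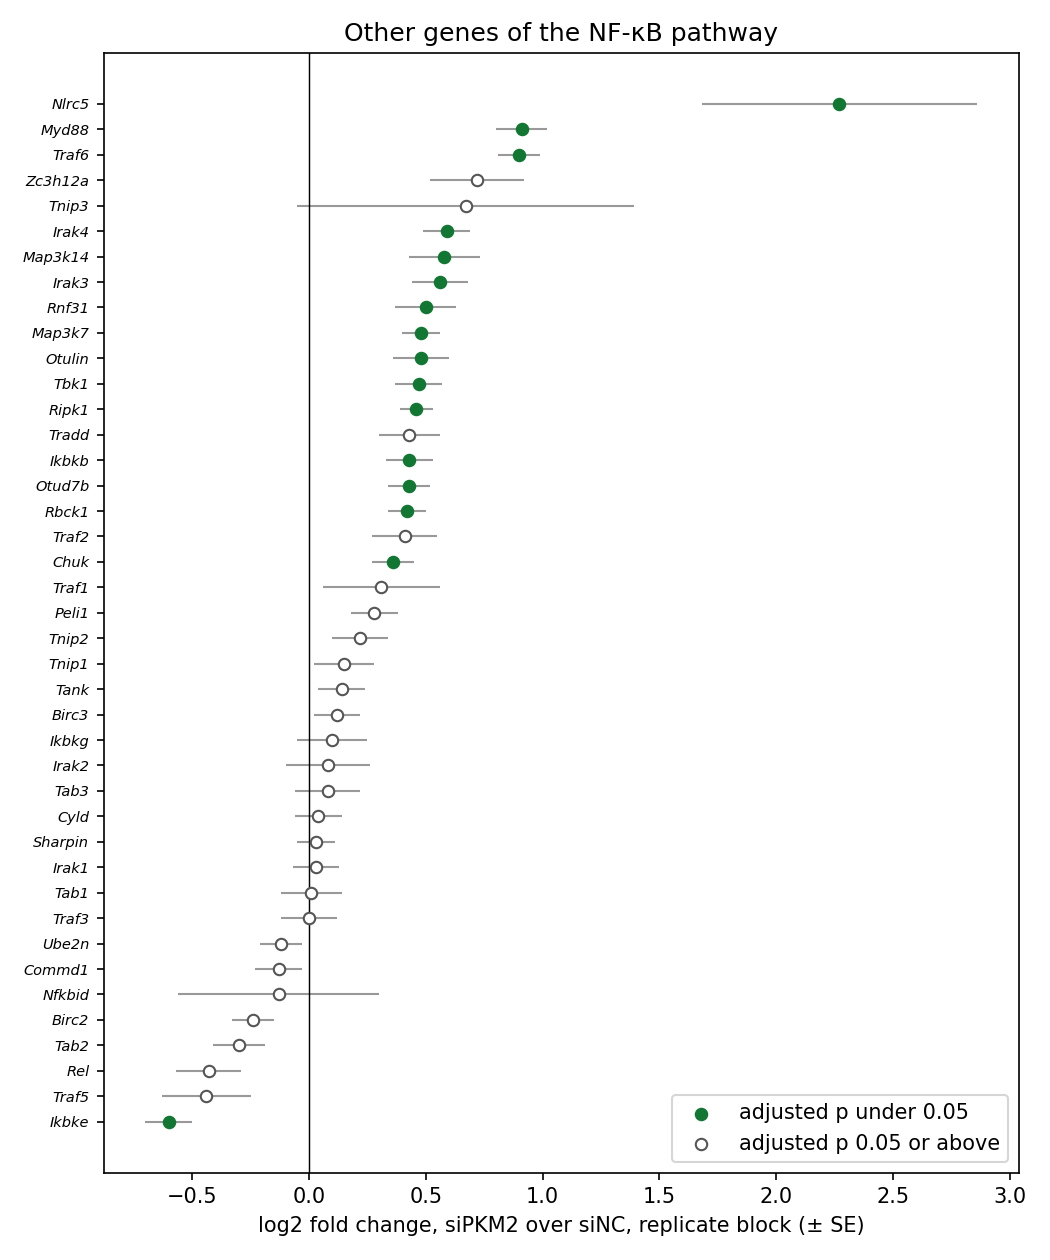
Log2 fold change of siPKM2 over siNC with the replicate block for the 41 other pathway genes (points, bars = SE); filled points have an adjusted p under 0.05. The filled points are 15 genes above 0, led by Nlrc5 at 2.27, and Ikbke at -0.60.

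Known NF-κB target genes, a list of 30 cytokines, chemokines, adhesion molecules, enzymes and proteases, were mostly highest in replicate 2. The low-count filter kept 25 of them (Ccl20, Il1b, Tnf, Csf2 and Nos2 were not tested). Replicate 2 was the highest library of both groups for 24 of the 25, compared with 26.9% of all genes tested. The median ratio to replicates 1 and 3 was 32.0 in siNC and 10.8 in siPKM2, beside 0.97 and 0.992 over all genes tested. Without the block 0 were called by edgeR, 2 had an unadjusted p under 0.05 (8% beside 17.6% of all genes) and DESeq2 called 1 (3.05% of all genes). With the block and no fold threshold 6 were called, 5 higher and 1 lower, which was 24% of the 25 beside 23.1% of all genes, and 5 passed with a fold over 2, which was 20% of the 25 beside 5.84% of all genes. The blocked log2 fold change was positive for 17 of the 25 and not for the other 8, beside 49.0% positive over all genes. Its median over the 25 was 0.66. The genes described below are the 6 that were called.

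Il6, an inflammatory cytokine, read 0.12, 38.6 and 0.482 CPM in siNC and 6.01, 96.3 and 8.36 CPM in siPKM2. It was near 0 in siNC replicates 1 and 3 and higher in siPKM2 in each pair (blocked log2 fold change 2.63 ± 0.66 SE, adjusted p = 0.0426 by edgeR). The size of this fold rests on few counts in those siNC libraries. Cxcl10, a chemokine that interferon also induces, read 1.52, 112 and 1.88 CPM in siNC and 12.2, 329 and 13.7 CPM in siPKM2. Its log2 fold change was 2.30 (adjusted p = 0.0141), and the interferon-stimulated list moved with it.

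The cytokine Lif and the neutrophil chemokine Cxcl1 were also higher in siPKM2 in each pair, with blocked log2 fold changes of 1.56 (adjusted p = 0.0224 by edgeR) and 1.12 (adjusted p = 0.0336). Lif read 5.69, 50.6 and 1.44 CPM in siNC and 21.8, 89.7 and 7.13 CPM in siPKM2. Cxcl1 read 477 and 756 CPM in the replicate 2 libraries against 3.16 to 12.7 CPM in the other 4. Plau, which encodes urokinase, was only slightly higher in replicate 2, at 1.11 times the mean of replicates 1 and 3 in siNC and 1.15 times in siPKM2. It read 38.4, 42.8 and 38.7 CPM in siNC and 62.2, 79.3 and 75.8 CPM in siPKM2 (log2 fold change 0.85, adjusted p = 0.0112). Mmp9, a gelatinase, fell, from 2.12, 3.52 and 3.63 CPM in siNC to 0.42, 1.48 and 0.64 CPM in siPKM2 (log2 fold change -1.97, adjusted p = 0.0227). These levels are low in all 6 libraries, so the fold rests on few counts.

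For Nfkbia, Nfkb2 and Tnfaip3, the genes with the most alike pattern over the 6 libraries were found as the smallest root mean square difference of centred log2 CPM among 12605 genes. Among the genes nearest to Nfkb2 were Irf2 and Zfp219 (0.07 each). Those nearest to Nfkbia were Gm14137 and Gm11131 (0.16 each) and Gdf5 (0.17). Gm11131 was low, at 0.175 to 4.09 CPM over the 6 libraries. Gdf5, a growth factor of the joint, read 7.81, 64.2 and 8.58 CPM in siNC and 12.5, 50.3 and 10.3 CPM in siPKM2. Tnfaip3 had no match as close, with Glt1d1 at 0.25, Tnip3 at 0.29 and Gdf5 at 0.31. Glt1d1 and Tnip3 were low, at 0.0876 to 3.72 CPM and 0 to 5.62 CPM. In pair 2 Tnip3 was lower in siPKM2 (log2 ratio -0.32), whereas Tnfaip3 was higher (0.53).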

How the data were processed

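RNA-seq of 6 libraries was analysed, with groups and replicate numbers taken from the sample titles. The authors deposited, per gene and library, estimated counts that were not normalized (41.8% of genes with a count held a fractional value) and TPM values scaled within each library; the 6 single-library files repeat the TPM. The deposited table also holds group means and the authors' own comparison (fold or ratio, log2 fold change, p-value and adjusted p-value), none of which was used. The submitters' processing notes list mm9 and edgeR with no role; the aligner and counter are not given in the sources used here. Gene positions are from GENCODE M21 (GRCm38), which held 52135 of the 55416 identifiers, and promoters from RefSeq (GRCm38.p6).

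Deposited counts were rounded, filtered with filterByExpr (15269 genes kept), scaled by TMM and tested with edgeR 4.0.16 (glmQLFit, glmQLFTest; R 4.3.3) with p-values adjusted by Benjamini-Hochberg across the 15269 genes. Calls needed an adjusted p under 0.05 together with a fold over 2, as in the study's supplementary methods, and the fit held no covariate. Alternatives were the replicate number as a block, no fold threshold, other size factors, filters, DESeq2 1.42.0, limma 3.58.1 on log2 TPM, and libraries left out. CPM values are TMM-scaled. Between same-numbered libraries the correlations of deviations from group means were 0.72, 0.79 and 0.72, and between differently numbered ones -0.70 to 0.22. Deviations from a group mean cancel within the group, so part of this contrast was set by the calculation. The numbers were taken as pairs from the data, which sets no common animal or day. No libraries were duplicates: 53.6 to 73.7% of genes differed beyond sampling noise between replicates. Scripts were tested on simulated counts.

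The members and lists were chosen with earlier results of these data known. Named were all members and Pkm, up to 6 genes per further list with the largest blocked log2 fold change among those with an adjusted p under 0.05, and the 3 nearest patterns of 3 members (SD over libraries at least 0.2, pseudocount 0.5 CPM), of which 1 is not reported here. Overlapping genes and the IκB kinase subunits were added after values were seen.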

Additional observations from a re-analysis of the deposited data

How the results depend on the processing

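The lowest count of any member in a library was 76. With 3 libraries per group and replicate 2 apart, the fit without a block had wide errors. The 180 log2 fold changes of members under alternatives were judged by sign and by the threshold on the adjusted p alone. Of these, 150 kept their direction and side of that threshold, 16 came to pass it and 0 came to fail it. The remaining 14 changed sign, all of them when 1 library was left out, and the cause was not tested. Where the fold threshold was also required, no member was called under any alternative. The fits with both libraries of a number left out and no fold threshold, and DESeq2 with the block, were chosen after seeing the data.

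With the replicate block, pairing libraries by number, 891 genes were called (0 without it), 1 other pathway gene and 5 targets, the members' median log2 fold change was 0.48 and that of Pkm -2.53. Without a fold threshold the block gave 3524 genes, 4 members, 16 other pathway genes and 6 targets. The block with both replicate 2 libraries left out gave 1641 genes, 2 pathway genes, 13 targets, a median of 0.50 and -2.63 for Pkm, and with no fold threshold 5941 genes, 7 members, 20 pathway genes and 18 targets. The block without the replicate 1 libraries gave a median of 0.45, and 0 genes called. DESeq2 with the replicate block and no fold threshold gave 3963 genes, 4 members, 17 pathway genes, 12 targets, a median of 0.48 and -2.52 for Pkm. Without a block, DESeq2 called 445 genes and 1 target, with -2.51 for Pkm (adjusted p = 1.21e-11). Upper-quartile factors called 3 genes, a minimum of 10 counts in each library 3, no filter on low counts 9, and limma on log2 TPM with a pseudocount of 0.1 or 1 called 1.

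Leaving out 1 library at a time without a block, 0 to 105 genes were called (105 without siNC replicate 2), and no members, pathway genes or targets. The members' median ranged from -0.18 (without siPKM2 replicate 2) to 1.07 (without siNC replicate 2), and Pkm from -2.80 to -2.34, with an adjusted p of 0.0495 without siNC replicate 2. The log2 fold change ranged from -0.27 to 0.56 for Relb, -0.98 to 1.63 for Nfkbia, -0.35 to 1.25 for Nfkbie, -1.29 to 2.31 for Nfkbiz, -1.13 to 2.10 for Tnfaip3 and -0.09 to 1.23 for Bcl3. It stayed positive for Nfkb1 (0.11 to 0.55), Nfkb2 (0.32 to 0.90), Rela (0.04 to 0.39) and Nfkbib (0.55 to 0.69). RLE size factors changed none of these calls.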
